A study of Mus musculus with 16 samples.

Results

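Genes of bone formation and the ligand and decoy receptor that control osteoclasts were followed in RNA-seq of bone marrow, MSC and tumor from K74R and wild-type (WT) mice. The set holds 10 genes, taken by symbol from the 55536 genes of the deposited count table: the transcription factors Runx2 and Sp7, the enzyme gene Alpl, the matrix genes Bglap, Ibsp, Spp1, Sparc and Dmp1, and the pair Tnfsf11 (RANKL) and Tnfrsf11b (osteoprotegerin). All 10 were found. K74R is a missense allele, lysine to arginine, of a gene that the labels name only as KLF, a family of zinc-finger transcription factors, and the sample titles call the same mice KO. Bone marrow had 3 K74R and 3 WT libraries, the samples labelled MSC had 2 K74R and 2 WT libraries, and tumor had 3 K74R and 3 WT libraries. The labels leave the letters MSC unexpanded and give no age, sex or strain. The tumors, of at most 1000 mm3, came from MC38, an established mouse colon adenocarcinoma line. A tumor library holds RNA of the line together with RNA of host cells. For tumors K74R and WT name the host mice, not the line, so K74R against WT compares hosts there. The labels do not state whether the libraries of a group are from separate animals. Every p-value below is therefore set against the spread among these libraries alone, which may be technical.

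Osteoblasts, the cells that build bone, arise from mesenchymal progenitors through RUNX2 and then SP7 (osterix), a pair of transcription factors without which mice form no bone. They make alkaline phosphatase (Alpl), which frees phosphate for mineral, and secrete proteins that bind collagen or mineral, among them osteocalcin (Bglap), bone sialoprotein (Ibsp), osteopontin (Spp1) and osteonectin (Sparc), while DMP1 belongs to the osteocytes that osteoblasts become once embedded in matrix. Cells of this lineage also govern bone removal: RANKL, the product of Tnfsf11, binds the receptor RANK on macrophage-lineage precursors and drives them to become osteoclasts, and osteoprotegerin, the product of Tnfrsf11b, is a secreted decoy receptor that captures RANKL. Osteopontin and osteonectin are not confined to bone, since macrophages, tumor cells and fibroblasts make them too.

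On genome build GRCm38 the genes lie on 7 chromosomes, all of them protein-coding in GENCODE release M21. Dmp1 (chr5:104202613-104214102), Ibsp (chr5:104299171-104311469) and Spp1 (chr5:104435118-104441050) follow one another on the plus strand of chromosome 5. Tnfrsf11b (chr15:54250619-54278484) and Sp7 (chr15:102356606-102367182) share chromosome 15, both on the minus strand. Bglap (chr3:88383501-88384464), Alpl (chr4:137741733-137796384), Sparc (chr11:55394500-55423183), Tnfsf11 (chr14:78277445-78308043) and Runx2 (chr17:44495987-44814797) lie on the minus strand. The promoters of Bglap, Dmp1 and Spp1 are shown because these 3 genes had the largest log2 fold changes, K74R over WT, in MSC. Each RefSeq window on GRCm38.p6 runs from 250 bases before to 50 bases after a start site, read 5′ to 3′ on the strand of the gene, with capitals for the RUNX core motif; of the 2 windows held for Dmp1 and for Spp1, the one with the motif is shown. The windows are chr3:88384417-88384716 (minus strand) for Bglap, chr5:104202367-104202666 (plus strand) for Dmp1 and chr5:104434861-104435160 (plus strand) for Spp1.
Bglap: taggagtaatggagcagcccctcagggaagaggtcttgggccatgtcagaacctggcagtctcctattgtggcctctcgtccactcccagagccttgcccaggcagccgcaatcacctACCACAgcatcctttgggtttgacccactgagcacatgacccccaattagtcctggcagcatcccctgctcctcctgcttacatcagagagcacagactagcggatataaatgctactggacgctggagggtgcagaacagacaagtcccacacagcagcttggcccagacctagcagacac
Dmp1: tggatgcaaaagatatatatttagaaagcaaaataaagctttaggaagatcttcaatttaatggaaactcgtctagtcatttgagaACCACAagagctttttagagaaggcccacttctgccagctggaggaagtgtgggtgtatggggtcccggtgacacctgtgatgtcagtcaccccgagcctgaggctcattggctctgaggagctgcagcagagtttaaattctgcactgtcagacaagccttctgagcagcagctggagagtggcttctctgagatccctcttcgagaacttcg
Spp1: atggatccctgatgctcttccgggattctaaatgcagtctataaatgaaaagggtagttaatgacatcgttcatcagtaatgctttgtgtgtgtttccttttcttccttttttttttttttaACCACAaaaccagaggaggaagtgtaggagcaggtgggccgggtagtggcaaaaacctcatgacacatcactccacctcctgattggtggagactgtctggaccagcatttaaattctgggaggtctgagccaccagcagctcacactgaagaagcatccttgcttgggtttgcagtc

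The motif searched was TGTGGT, the core that RUNX factors recognise, or ACCACA on the other strand. In these 3 windows it stood as ACCACA, beginning at position -132 for Bglap, -164 for Dmp1 and -128 for Spp1, counted from the start site. RefSeq windows were held for 8 of the 10 genes, 11 windows in all, and 5 of the 11 windows, each of a different gene (Runx2, Bglap, Spp1, Sparc and Dmp1), carried the motif, against 16.8% of the 32851 windows of all genes. Sp7 and Tnfrsf11b had no window among them. The pattern CCNCNCCC, the kind of C-rich box that KLF factors recognise, or GGGNGNGG on the other strand, was present in 5 of the 11 windows (Runx2, both of Alpl, Bglap and Ibsp), against 49.5% of all windows. In Runx2 and Bglap, which had both patterns, no match of one overlapped a match of the other. A match is a description of letters only.

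Library totals were 14067259 to 18923751 counts. Levels are in CPM, counts scaled to a common library total with trimmed mean of M-values (TMM) factors over the 16 libraries, and, where genes are compared with each other, in CPM per kilobase of exon. Chi-square statistics showed that replicates of every group differed by more than sampling noise. Of the erythroid KLF family member, Klf1 had 133, 102 and 87.1 CPM in K74R bone marrow, against 127, 104 and 141 CPM in WT bone marrow, and at most 0.668 CPM in any MSC or tumor library. A missense change leaves the transcript in place, so this level is no check of the genotype labels. In the bone marrow libraries 10 erythroid markers summed to 31568 to 41442 CPM and 12 neutrophil markers to 28541 to 37174 CPM. In the MSC libraries 14 markers of cultured MSC and fibroblasts summed to 13645 to 15624 CPM, with 1 of the 14 at 0 in each WT library. Of these 14, 10 were higher and 2 lower (Lum and Dcn) in WT MSC than in WT bone marrow. The test was edgeR's, at an adjusted p under 0.05, where 33.5% of all genes were higher and 36% lower. The MSC libraries also held macrophage markers at 5535 to 18532 CPM and chondrocyte markers at 577 to 2640 CPM. In the tumors, 12 epithelial markers summed to 4.61 to 9.07 CPM, with Epcam at 0.40 ± 0.09 CPM in K74R and 0.38 ± 0.29 CPM in WT tumors (SD, n = 3 each), so the labelled epithelial origin was not visible in these markers.

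Most of these genes differed widely between the tissues. In the MSC libraries Sp7, Alpl, Spp1, Sparc and Tnfrsf11b were abundant. Bone marrow combined a high level of Ibsp with traces of Sp7, Bglap and Dmp1, and tumors held Spp1, Sparc and Runx2 with hardly a read of Sp7, Alpl, Bglap, Ibsp or Dmp1. Among WT libraries, 6 of the 10 genes were higher and 1 was lower in MSC than in bone marrow (edgeR's quasi-likelihood test, adjusted p under 0.05), where 33.5% of all 18191 genes were higher and 36% lower, 69.5% together. In WT tumor against WT bone marrow 3 were higher and 5 lower (36.5% and 36.2% of all genes, 72.7% together), and in WT MSC against WT tumor 8 were higher and 1 lower (31.9% and 34.1%, 66% together). Among K74R libraries 6 were higher and 0 lower in MSC against bone marrow (34.4% and 35.5% of all genes, 69.9% together), 3 higher and 5 lower in tumor against bone marrow (38.3% and 37.5%, 75.8% together) and 8 higher and 0 lower in MSC against tumor (30.5% and 31.8%, 62.3% together). The 10 genes were more often higher in MSC than all genes were, above all against tumor (8 of 10 in either genotype). The 10 genes were chosen with earlier results known, and no test of the set was made. Tissue cannot be told apart from anything else that was done tissue by tissue, and in bulk RNA fewer cells of a type cannot be told apart from less RNA per cell.

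**Figure D1:**
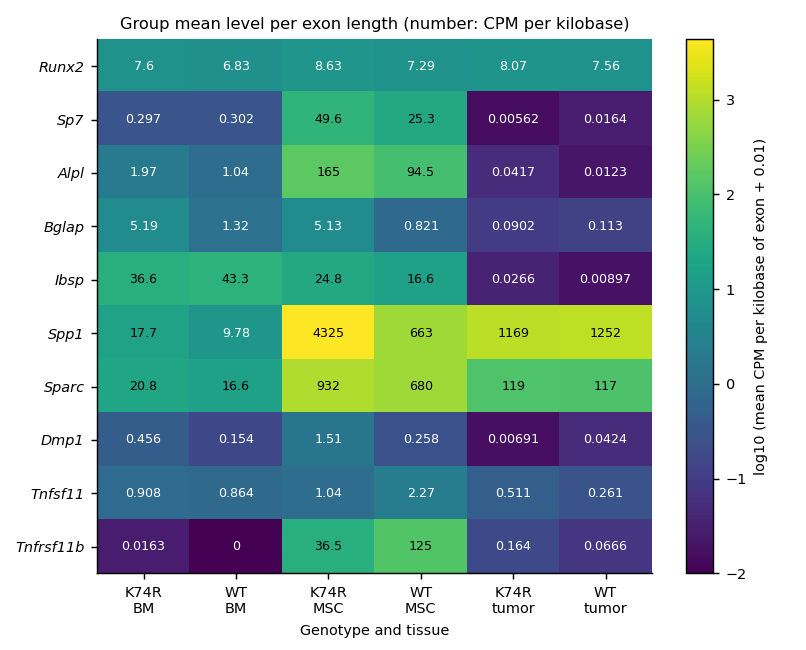
Mean level of each gene (rows) in each genotype and tissue (columns), as CPM per kilobase of exon, on a log10 colour scale with 0.01 added, over 3 libraries in bone marrow and tumor and 2 in MSC. Runx2 stays between 6.83 and 8.63 CPM per kilobase in all 6 groups, whereas Tnfrsf11b is at 36.5 and 125 in K74R and WT MSC and at most 0.164 elsewhere.

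Runx2, the factor that commits progenitors to the osteoblast line, was present at almost the same level everywhere. K74R bone marrow had 64.1, 62.7 and 74.8 CPM, against 62.4, 66.8 and 51.7 CPM in WT bone marrow. K74R MSC had 70.6 and 82.0 CPM, against 64.8 and 64.1 CPM in WT MSC, and K74R tumors had 66.8, 63.9 and 83.4 CPM, against 66.1, 68.0 and 66.5 CPM in WT tumors. All 16 libraries thus lay between 51.7 and 83.4 CPM, and Runx2 passed the test in none of the 6 tissue contrasts or the 3 genotype comparisons. The log2 fold change of K74R over WT was 0.17 ± 0.11 (SE) in bone marrow (adjusted p = 0.474), 0.24 ± 0.17 in MSC (adjusted p = 0.437) and 0.11 ± 0.10 in tumor (adjusted p = 0.712). The interval of 2 SE around the estimate ran from -0.11 to 0.58 in MSC.

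Sp7, which acts after Runx2 and is much more particular to osteoblasts, separated the tissues sharply. It had 178 and 159.5 CPM in K74R MSC, against 87.2 and 84.7 CPM in WT MSC. In bone marrow it had 0.610, 1.23 and 1.18 CPM in K74R and 0.400, 1.99 and 0.689 CPM in WT libraries, and in the 6 tumors it had 0 to 3 counts per library. In WT libraries the log2 fold change of MSC over bone marrow was 6.35 ± 0.37 (adjusted p = 8.14e-10), and the tumors together held 3 counts, a level 20.4-fold below WT bone marrow with a 95% counting interval of 6.56 to 103. Both K74R MSC libraries lay above both WT MSC libraries, with a log2 fold change of 0.96 ± 0.17, but the adjusted p of 0.0505 missed the threshold. In bone marrow the genotypes overlapped (log2 fold change -0.03 ± 0.58, adjusted p = 0.985), and at 6 to 31 counts per library the interval from -1.19 to 1.13 covers a change of either sign.

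Alpl, whose enzyme marks osteoblasts before they mineralise, had the same order of tissues. It had 492 and 836 CPM in K74R MSC, against 388 and 374 CPM in WT MSC. Bone marrow had 6.17, 9.93 and 7.73 CPM in K74R and 2.93, 7.32 and 2.30 CPM in WT libraries, with WT library 2 inside the K74R range. Tumors had 0 to 5 counts per library. WT MSC exceeded WT bone marrow by 6.48 ± 0.38 on the log2 scale (adjusted p = 9.04e-10). The log2 fold change of K74R over WT was 0.79 ± 0.30 in MSC (adjusted p = 0.168), where the libraries did not overlap, and 0.92 ± 0.40 in bone marrow (adjusted p = 0.269), where they did. Neither passed, although without WT bone marrow library 2 the marrow value was 1.603 and its adjusted p was 0.0167.

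Among the matrix genes Bglap, the osteocalcin gene of mature osteoblasts, was low in all tissues. K74R bone marrow had 4.88, 3.22 and 1.53 CPM, against 0.534, 1.61 and 0.306 CPM in WT bone marrow, so that K74R library 3 lay just below WT library 2. K74R MSC had 3.41 and 2.92 CPM, against 0.676 and 0.339 CPM in WT MSC, with no overlap. The log2 fold changes were 1.95 ± 0.59 in bone marrow (adjusted p = 0.151) and 2.60 ± 0.50 in MSC (adjusted p = 0.0542), neither past the threshold. Without WT bone marrow library 2 the marrow value was 2.90 with an adjusted p of 0.0294. These values rest on 4 to 72 counts per library. MSC and bone marrow did not differ past the threshold among K74R (log2 fold change -0.02 ± 0.57, adjusted p = 0.989) or WT libraries (-0.69 ± 0.75, adjusted p = 0.425), and the tumors held 0 to 2 counts each. Bglap2 and Bglap3 are related copies beside it on chromosome 3. Of the 50-base stretches of their transcripts, 56.6% of those of Bglap, 88.2% of those of Bglap2 and 7.0% of those of Bglap3 also occur in another copy, so the division of reads is uncertain, most of all between Bglap and Bglap2. The copies had the same sign in MSC, with Bglap2 at 1.71 and 2.08 CPM in K74R and 1.05 and 1.08 CPM in WT libraries, and Bglap3 at 1.47 and 1.69 CPM in K74R and 0.492 and 0.339 CPM in WT libraries. Neither copy passed in MSC (log2 fold change 0.82, adjusted p = 0.278, and 1.89, adjusted p = 0.0926).

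Dmp1, the osteocyte matrix protein gene, behaved much like Bglap. It had 1.02, 1.03 and 1.74 CPM in K74R bone marrow, against 0.200, 0.771 and 0.306 CPM in WT bone marrow, and 5.77 and 2.60 CPM in K74R MSC, against 0.615 and 0.813 CPM in WT MSC. In both tissues the K74R libraries lay wholly above the WT libraries. The log2 fold changes of 1.54 ± 0.52 in bone marrow (adjusted p = 0.186) and 2.54 ± 0.55 in MSC (adjusted p = 0.0647) did not pass, on 3 to 98 counts per library. Among K74R libraries Dmp1 was higher in MSC than in bone marrow (1.73 ± 0.58, adjusted p = 0.0149), a call lost without K74R MSC library 1 (1.06, adjusted p = 0.230). The 3 K74R tumors together held 1 count of Dmp1, and the 3 WT tumors 7 counts, 6 of them in library 2. Of the other osteocyte genes, Sost, which encodes the Wnt inhibitor sclerostin, had 0.885 ± 0.585 CPM in K74R MSC (SD, n = 2) and no count in any other group.

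Ibsp, the gene of a collagen-binding protein that nucleates mineral, was the one gene of the set that passed as lower in MSC than in bone marrow, and only among WT libraries; the difference of that contrast between genotypes did not pass (0.82 ± 0.54, adjusted p = 0.325). It had 63.4, 88.5 and 75.0 CPM in K74R bone marrow, against 36.0, 136 and 96.2 CPM in WT bone marrow, and the K74R values fell within the WT range. K74R MSC had 42.4 and 60.3 CPM, against 37.3 and 31.6 CPM in WT MSC. Tumors had 0 to 3 counts per library. WT MSC was lower than WT bone marrow by a log2 fold change of -1.38 ± 0.40 (adjusted p = 0.00602) although WT marrow library 1 overlapped the MSC values, and without WT MSC library 2 the adjusted p was 0.0524. Among K74R libraries the same contrast was -0.56 ± 0.38 (adjusted p = 0.203). K74R over WT did not pass in bone marrow (-0.23 ± 0.37, adjusted p = 0.784) or MSC (0.57 ± 0.24, adjusted p = 0.207). Ibsp lies between Dmp1 and Spp1 on chromosome 5. Over the 16 libraries, Pearson's r of log2 CPM was 0.809 with Dmp1 and -0.581 with Spp1.

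**Figure D2:**
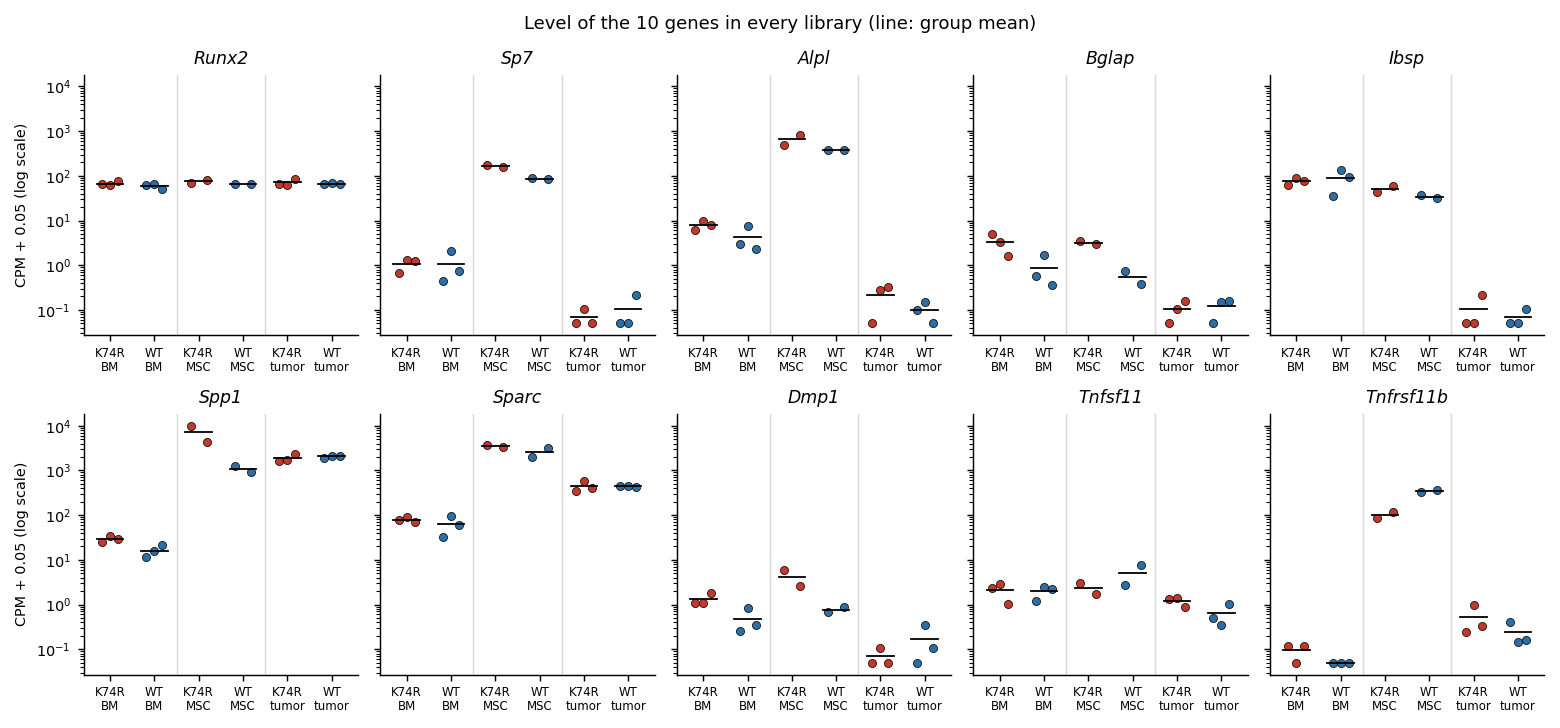
Level of each of the 10 genes in every library, as CPM plus 0.05 on a log scale, by genotype and tissue, with a point per library and a line at the group mean. Runx2 is flat at 51.7 to 83.4 CPM, Spp1 reaches 10033 CPM in K74R MSC library 1, and Sp7, Alpl, Bglap, Ibsp and Dmp1 sit near the bottom of the axis in all tumors.

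Per kilobase of exon Spp1, the osteopontin gene, had the highest mean of the 10 genes in K74R MSC (4325 CPM per kilobase) and in tumors (1169 in K74R and 1252 in WT), and in WT MSC it stood at 663 beside Sparc at 680. K74R MSC had 10033 and 4221 CPM, against 1245 and 939.6 CPM in WT MSC, so the lower K74R library still stood well above both WT libraries. The log2 fold change was 2.70 ± 0.50, and the adjusted p of 0.0516 missed the threshold. In bone marrow K74R libraries had 24.5, 34.1 and 28.9 CPM, against 11.3, 16.1 and 20.9 CPM in WT libraries. These did not overlap either, and the log2 fold change of 0.87 ± 0.21 had an adjusted p of 0.0984. Tumors had 1643, 1752 and 2386 CPM in K74R and 1923, 2147 and 2121 CPM in WT libraries, which overlapped (-0.09 ± 0.13, adjusted p = 0.837). The order of MSC and tumor differed by genotype: MSC exceeded tumor among K74R libraries (log2 fold change 1.89 ± 0.30, adjusted p = 5.38e-05) and was lower than tumor among WT libraries (-0.92 ± 0.31, adjusted p = 0.0159), the second of which was lost without WT MSC library 2 (adjusted p = 0.130).

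Sparc, whose product binds collagen and mineral, was abundant in all 3 tissues in the order MSC, tumor, bone marrow. It had 3645 and 3415 CPM in K74R MSC, against 2033 and 3116 CPM in WT MSC. Tumors had 355, 593 and 401 CPM in K74R and 448, 458 and 429 CPM in WT libraries, and bone marrow had 76.5, 91.5 and 68.8 CPM in K74R and 32.4, 94.8 and 61.6 CPM in WT libraries. Among WT libraries MSC exceeded bone marrow by 5.35 ± 0.35 and tumor exceeded bone marrow by 2.82 ± 0.31 on the log2 scale (adjusted p = 3.17e-09 and 8.15e-07). The genotypes did not pass in any tissue, with log2 fold changes of 0.34 ± 0.31 in bone marrow (adjusted p = 0.598), 0.45 ± 0.30 in MSC (adjusted p = 0.399) and 0.03 ± 0.17 in tumor (adjusted p = 0.961).

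Tnfrsf11b, the osteoprotegerin gene, was the one gene of the set whose K74R over WT difference passed the test in any tissue. K74R MSC had 86.3 and 119 CPM (1467 and 1840 counts), against 329 and 374 CPM (5344 and 5528 counts) in WT MSC. It fell 3.43-fold in K74R MSC, a log2 fold change of -1.78 ± 0.23 with an adjusted p of 0.0312, and the libraries did not overlap. The call was lost without K74R MSC library 1 (log2 fold change -1.56, adjusted p = 0.133) and without WT MSC library 2 (-1.69, adjusted p = 0.0530). Outside MSC there was little to measure: 1, 0 and 1 counts in K74R bone marrow, 0 counts in the 3 WT bone marrow libraries, where a count of 0 allows up to 0.0688 CPM over the group (3 counts), 4, 16 and 5 counts in K74R tumors and 7, 2 and 2 counts in WT tumors. WT MSC was at least 5095-fold higher than WT bone marrow, with the floor of 3 counts taken over the group. Intervals and floors cover counting error only. Tumor passed above bone marrow in WT libraries (adjusted p = 0.0276), on 11 counts and at least 2.75-fold, and this call was lost without any single WT bone marrow library (adjusted p 0.0528 to 0.0611) and without WT tumor library 1 (0.0917).

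Tnfsf11, the gene of the ligand, stayed low everywhere. It had 2.24, 2.88 and 0.974 CPM in K74R bone marrow, against 1.13, 2.44 and 2.22 CPM in WT bone marrow. K74R MSC had 2.94 and 1.69 CPM, against 2.71 and 7.45 CPM in WT MSC, and K74R tumors had 1.29, 1.32 and 0.824 CPM, against 0.454, 0.296 and 1.00 CPM in WT tumors. The genotypes overlapped in all 3 tissues. The log2 fold changes were 0.09 ± 0.44 in bone marrow (adjusted p = 0.940), -1.12 ± 0.59 in MSC (adjusted p = 0.287) and 0.99 ± 0.47 in tumor (adjusted p = 0.472), on 6 to 110 counts per library. By tissue, WT MSC exceeded WT tumor by 3.12 ± 0.57 on the log2 scale (adjusted p = 1.91e-04). WT tumor was lower than WT bone marrow (-1.73 ± 0.55, adjusted p = 0.0112). Neither contrast passed among K74R libraries (1.02 ± 0.56, adjusted p = 0.127, and -0.82 ± 0.51, adjusted p = 0.157). Among WT libraries Tnfsf11 was higher in MSC than in bone marrow (1.39 ± 0.53, adjusted p = 0.0284), a call lost without WT MSC library 2 (0.51, adjusted p = 0.504) and without WT bone marrow library 1 (1.11, adjusted p = 0.0992).

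Set against each other per kilobase of exon, osteoprotegerin outnumbered RANKL transcripts in every MSC library, by 23.3- and 56.2-fold in K74R and 96.4- and 39.9-fold in WT libraries, and RANKL exceeded osteoprotegerin in the other tissues. The log2 ratio of Tnfsf11 to Tnfrsf11b in CPM, with 0.1 CPM added to each, averaged -5.45 ± 0.87 in K74R MSC and -6.25 ± 0.88 in WT MSC (SD, n = 2 each), a difference of 0.81 with an exact permutation p of 0.667, where 2 against 2 cannot go below 0.333. It averaged 3.79 ± 1.12 in K74R and 4.28 ± 0.57 in WT bone marrow (SD, n = 3 each, exact permutation p = 0.7), and 1.33 ± 0.87 in K74R and 1.22 ± 1.07 in WT tumors (SD, n = 3 each, exact permutation p = 0.8). The smallest p that 3 against 3 allows is 0.1, all tests two-sided. The ratios overlapped between genotypes in every tissue. In MSC both genes had the smaller mean in K74R libraries, at 2.31 and 103 CPM against 5.08 and 351 CPM in WT libraries. In bone marrow, with at most 1 Tnfrsf11b count per library, the ratio depends on the added 0.1 CPM, and in tumors the genotype difference was 0.11 with 0.1 CPM added and -0.066 with 0.01 CPM added.

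**Figure D3:**
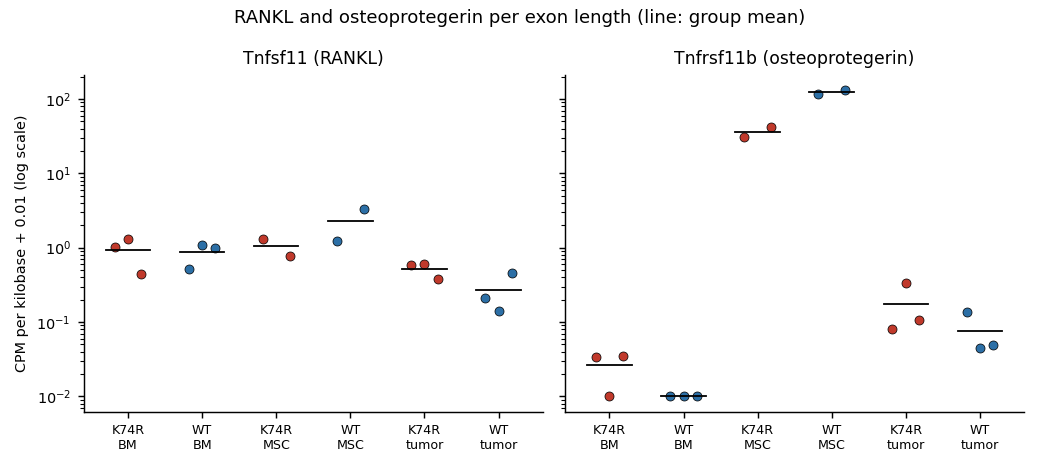
Tnfsf11 (left) and Tnfrsf11b (right) in every library, as CPM per kilobase of exon plus 0.01 on a log scale, with a point per library and a line at the group mean. The right panel shows Tnfrsf11b at or near 0 in bone marrow and, in MSC, the 2 K74R libraries below the 2 WT libraries.

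Counted together, K74R against WT gave 0 calls among the 9 genes tested in bone marrow (0.773% of all 14872 genes called), 1 lower and 0 higher among 10 in MSC (1.29% of 14475 genes lower and 2.05% higher, 3.34% together) and 0 among 4 in tumor (0.0406% of 14779 called). At an unadjusted p under 0.05 with edgeR the counts were 4 of 9 in bone marrow, all 4 higher (Alpl, Bglap, Spp1 and Dmp1, against 17.8% of all genes in either direction), 5 higher and 1 lower of 10 in MSC (Sp7, Alpl, Bglap, Spp1 and Dmp1 higher, Tnfrsf11b lower, against 26% of all genes), and 0 of 4 in tumor (11.2% of all genes). DESeq2 called 2 in bone marrow (Bglap, adjusted p = 0.0309, and Spp1, 0.00266), 5 in MSC (Sp7, 0.00127, Bglap, 0.00619, Spp1, 1.67e-08, and Dmp1, 0.00552, with Tnfrsf11b lower) and 0 in tumor. DESeq2 also called many more of all genes than edgeR in each tissue, with the numbers given under the dependence on processing. Its share over all genes tested is not given, so these DESeq2 counts among the 10 genes are not set against a background. In MSC the K74R libraries lay wholly above the WT libraries for 8 genes and wholly below for 1, where 59.4% of all genes did not overlap with 2 libraries a group. In bone marrow they lay above for 2 genes (23% of all genes did not overlap) and in tumor for 0 of the 4 tested (17%). The median log2 fold change was 0.34 over the 9 genes tested in bone marrow (all genes -0.001), 0.68 over the 10 in MSC (all genes 0.001) and 0.07 over the 4 in tumor (all genes 0.005). The 6 genes not tested in tumor and Tnfrsf11b in bone marrow had too few counts for the filter.

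**Figure D4:**
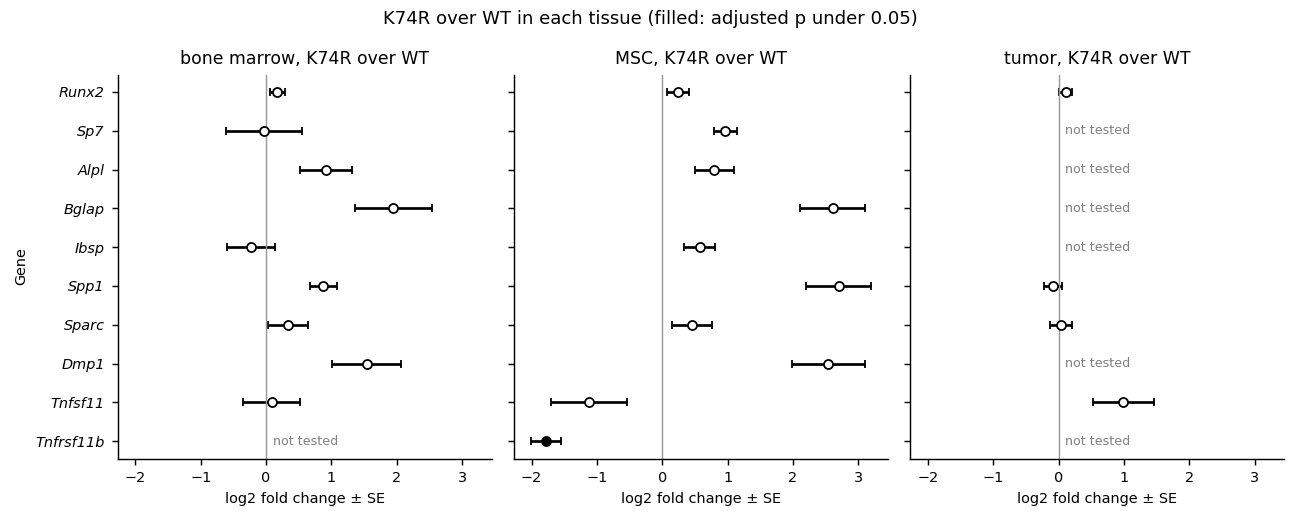
Log2 fold change, K74R over WT, with its SE for each of the 10 genes in bone marrow, MSC and tumor, with a filled point where the adjusted p is under 0.05. Tnfrsf11b in MSC is the filled point, at -1.78, and Bglap, Spp1 and Dmp1 lie at 2.54 to 2.70 in MSC, while the 4 genes tested in tumor lie at -0.09 to 0.99.

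The difference of the K74R effect between tissues was tested in a model of all 16 libraries. For Spp1 the effect was larger in MSC than in bone marrow by 1.85 ± 0.44 on the log2 scale (adjusted p = 0.00915) and larger in MSC than in tumor by 2.80 ± 0.43 (adjusted p = 7.38e-04). For Tnfrsf11b it was lower in MSC than in tumor by a log2 difference of -2.99 ± 0.71 (adjusted p = 0.0173). No other gene of the set passed, with 18.8% of 18191 genes called for MSC against bone marrow, 10.6% for MSC against tumor and 0.0385% for tumor against bone marrow, where 0 of the 10 passed with edgeR (2 at an unadjusted p under 0.05, Spp1 and Dmp1, against 11.5% of all genes) and 0 with DESeq2. The first Spp1 difference was lost without K74R MSC library 1 (1.09, adjusted p = 0.0647) and the Tnfrsf11b difference without K74R tumor library 2 (-2.07, adjusted p = 0.102). In one shared model the spread is pooled over tissues, so these values and the single-tissue tests are not interchangeable.

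Markers of other cell types moved with the genotype in the MSC libraries. The calls below are to be read against 1.29% of all 14475 genes lower and 2.05% higher. The 12 macrophage markers summed to 5535 and 7418 CPM in K74R MSC, against 18532 and 14168 CPM in WT MSC, with 2 lower and 1 higher past the test (Apoe, -2.14 ± 0.32 on the log2 scale, C1qa, -1.33 ± 0.23, and Arg1, 3.68 ± 0.58). The 8 general hematopoietic markers summed to 839 and 1587 CPM in K74R, against 2647 and 1973 CPM in WT MSC, with 0 called and none at 0. The 8 endothelial markers summed to 19.6 and 27.7 CPM in K74R MSC, against 308 and 1653 CPM in WT MSC, with 5 of 8 lower, among them Pecam1 (-6.65 ± 0.92) and Tek (-6.68 ± 0.94). The 8 adipocyte markers summed to 2263 and 2403 CPM in K74R, against 974 and 1118 CPM in WT MSC, with 2 of the 7 tested higher (Fabp4, 3.51 ± 0.31, and Plin1, 5.20 ± 0.63). Chondrocyte markers summed to 2640 and 2346 CPM in K74R and 1132 and 577 CPM in WT MSC with 0 of the 4 tested called, although their median log2 fold change was -0.36. Marrow stroma markers summed to 3104 and 4891 CPM in K74R and 6941 and 10834 CPM in WT MSC with 0 of 11 called. Although this sum was lower, 4 of the 11 were higher and 2 lower at an unadjusted p under 0.05 (26% of all genes in either direction). Their median log2 fold change was -0.22. Markers of cultured MSC and fibroblasts summed to 13645 and 14222 CPM in K74R and 14605 and 15624 CPM in WT MSC, with 2 of the 13 tested higher, Col6a1 (1.56 ± 0.26) and S100a4 (2.86 ± 0.51). Neutrophil markers, at low levels, summed to 53.0 and 80.1 CPM in K74R, against 5.23 and 3.66 CPM in WT MSC, with 2 to 6 of the 12 at 0 in each library and 1 of the 2 tested higher (Mmp8, 4.27 ± 0.37). The part of these shifts in the values of Tnfrsf11b, Spp1 and the other genes was not tested.

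**Figure D5:**
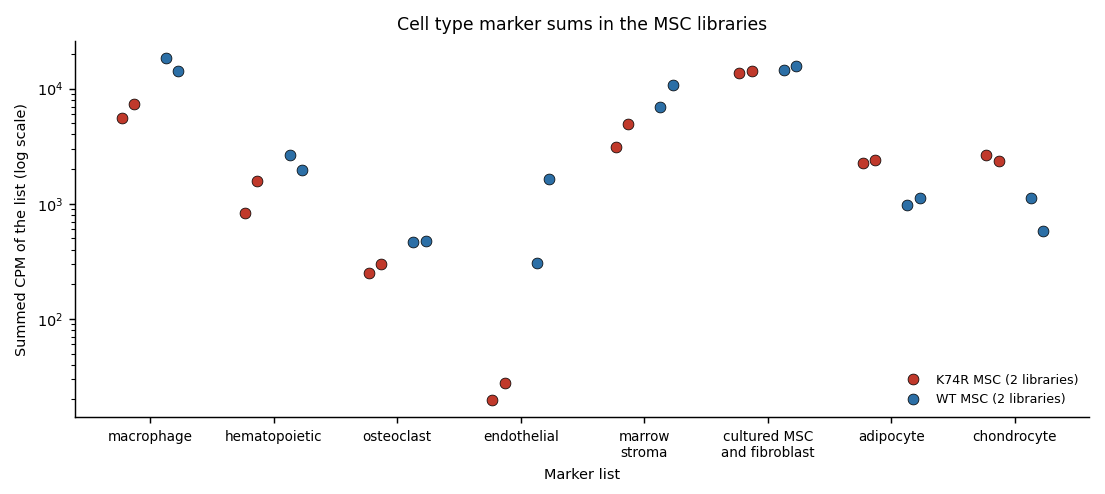
Summed CPM of 8 marker lists, on a log scale, in the 2 K74R and 2 WT MSC libraries, a point per library. Macrophage, hematopoietic, osteoclast, endothelial and marrow stroma sums lie lower in both K74R libraries, adipocyte and chondrocyte sums higher, and the sum for cultured MSC and fibroblasts lies between 13645 and 15624 CPM in all 4.

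The marrow stroma markers in bone marrow summed to 1017, 1583 and 1312 CPM in K74R libraries and 780.5, 1705 and 1512 CPM in WT libraries. WT library 1, the lowest in that list, was also the lowest of the 6 for Sp7, Ibsp and Sparc, and WT library 2, the highest, was the highest for those 3 genes. The part of these markers in the result was not tested. Osteoclast markers summed to 1284 to 1331 CPM in K74R and 1315 to 1483 CPM in WT bone marrow. B cell markers summed to 1034, 1353 and 1464 CPM in K74R, against 622.5, 948.5 and 486 CPM in WT bone marrow, with 0 of 12 called and 10 of 12 higher at an unadjusted p under 0.05 (17.8% of all genes in either direction). Neutrophil markers summed to 31100, 30229 and 28541 CPM in K74R, against 37044, 34367 and 37174 CPM in WT bone marrow, with no overlap, 0 of 12 called and 6 of 12 lower at an unadjusted p under 0.05. T cell markers summed to 73.5, 62.2 and 63.1 CPM in K74R, against 50.6, 42.9 and 48.8 CPM in WT bone marrow, with no overlap, 0 of 12 called and 1 of 12 higher at an unadjusted p under 0.05. The part of these lists in the values of Spp1, Bglap and the other genes was not tested. In tumors the hematopoietic markers summed to 445, 302 and 347 CPM in K74R, against 519, 460 and 549.8 CPM in WT tumors, with 0 of 8 called and 7 of 8 lower at an unadjusted p under 0.05 (11.2% of all genes).

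The wider pathway was followed in lists of other genes, whose counts at an unadjusted p under 0.05 are to be read against 17.8% of all genes in bone marrow, 26% in MSC and 11.2% in tumor. Calls between genotypes past the adjusted threshold are to be read against 0.773%, 3.34% and 0.0406% in the same order. The 18 genes of the receptor RANK and its signaling were present in all tissues: Tnfrsf11a, the gene of RANK itself, had 45.2 ± 27.8 CPM in K74R and 61.6 ± 27.7 CPM in WT MSC (SD, n = 2 each), and 2.48 ± 0.55 CPM in K74R and 3.21 ± 0.61 CPM in WT bone marrow (SD, n = 3 each). Among WT libraries it was higher in MSC than in bone marrow (4.26 ± 0.38 on the log2 scale, adjusted p = 9.64e-08). In K74R against WT MSC an unadjusted p under 0.05 was reached by 9 of the 17 tested in the lower direction and by 1 in the higher, with a median log2 fold change of -0.53, and Tnfrsf11a did not pass (-0.46 ± 0.51, adjusted p = 0.615). None of the 18 passed in bone marrow or tumor with edgeR (3 higher and 1 lower, and 0 higher and 7 lower, at an unadjusted p under 0.05). Ctsk, the osteoclast protease cathepsin K, went in opposite directions: it rose in K74R bone marrow, to 14.8 ± 4.57 CPM against 5.29 ± 0.62 CPM in WT (SD, n = 3 each, log2 fold change 1.496 ± 0.24, adjusted p = 0.0342), and fell in K74R MSC, to 86.8 ± 11.8 CPM against 225 ± 8.97 CPM in WT (SD, n = 2 each, -1.38 ± 0.19, adjusted p = 0.0323). It was the only one of the osteoclast markers tested to pass in either tissue (6 tested in bone marrow, 7 in MSC).

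Among 18 inducers of RANKL, such as the vitamin D receptor gene Vdr and the cytokine gene Il6, 0 of 16 passed between genotypes in MSC (3 higher and 3 lower at an unadjusted p under 0.05), 0 of 15 in bone marrow (3 higher, 1 lower) and 0 of 16 in tumor (1 higher, 2 lower), with edgeR. By tissue 12 of 17 were higher in WT MSC than in WT bone marrow and 2 lower, where 33.5% of all genes were higher and 36% lower, with Ptgs2, the gene of the prostaglandin enzyme COX-2, up by 6.51 ± 0.70 on the log2 scale and Lif, a cytokine of the IL-6 family, by 5.30 ± 0.44, and Il1b at -3.67 ± 0.46. The list of other transcription factors linked to osteoblasts also holds Sox9 and Pparg, which the chondrocyte and adipocyte marker lists share. Its counts are therefore not counts of osteoblast factors alone. Of these factors 13 of 17 were higher and 2 lower in WT MSC than in WT bone marrow. In WT tumor against WT bone marrow 12 of 17 were higher and 3 lower, where 36.5% of all genes were higher and 36.2% lower. Sox9, the cartilage factor, led both at 9.19 ± 0.50 and 11.03 ± 0.45. Dlx5 and Dlx6, homeobox partners of osteoblast genes, were lower in WT tumor than in WT bone marrow (-3.91 ± 1.02 and -5.54 ± 1.41). None of these factors passed between genotypes (0 of 17 in MSC with 5 higher and 1 lower at an unadjusted p under 0.05 and a median log2 fold change of 0.61, 0 of 8 in bone marrow with 2 higher, 0 of 14 in tumor with 3 higher and 1 lower).

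The list of other bone matrix and mineralization genes had 1 call between genotypes in MSC, Fbln1, an extracellular matrix glycoprotein gene, which rose to 20.7 ± 3.67 CPM in K74R, against 4.96 ± 0.75 CPM in WT MSC (SD, n = 2 each, log2 fold change 2.06 ± 0.27, adjusted p = 0.0308). Of the 27 tested, 16 were higher and 1 lower at an unadjusted p under 0.05 (26% of all genes in either direction), and the median log2 fold change was 0.89. The type I collagen genes, chosen here after their values were seen, had 4288 ± 1332 CPM (Col1a1) and 6231 ± 533 CPM (Col1a2) in K74R MSC, against 1591 ± 757 and 2932 ± 960 CPM in WT MSC (SD, n = 2 each), and did not pass. In bone marrow 0 of 26 passed (6 higher and 3 lower at an unadjusted p under 0.05) and in tumor 0 of 25 (0 higher, 2 lower). Of the osteocyte list, which also holds Dmp1, Pdpn, the podoplanin gene of early osteocytes, was the 1 of 7 that rose in K74R MSC (1.26 ± 0.22 on the log2 scale, adjusted p = 0.0463).

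Wnt and BMP signals, which promote osteoblast formation, gave 3 calls of 30 in MSC, where 3.34% of all genes were called. Wnt10b, a ligand that favours bone over fat in mice, rose to 9.55 ± 3.40 CPM in K74R, against 1.09 ± 0.11 CPM in WT MSC (log2 fold change 3.11 ± 0.41, adjusted p = 0.0312). Dkk2, a secreted Wnt modulator, fell to 0.563 ± 0.214 CPM in K74R, against 9.68 ± 1.62 CPM in WT MSC (-4.10 ± 0.42, adjusted p = 0.0196), and Wnt16, a ligand known in mice to restrain osteoclasts in part through osteoprotegerin, fell to 0.159 ± 0.142 CPM in K74R, against 2.47 ± 0.53 CPM in WT MSC (-3.92 ± 0.68, adjusted p = 0.0476; SD, n = 2 each). At an unadjusted p under 0.05 the list had 6 higher and 7 lower. In bone marrow 1 of 20 passed, the BMP target Id1, which fell (-0.99 ± 0.17, adjusted p = 0.0438), where 0.773% of all genes were called. In tumor 0 of 24 passed with edgeR (0 higher and 4 lower at an unadjusted p under 0.05). Of 14 genes that respond to tissue handling, Zfp36 (0.82 ± 0.10) and Dusp1 (1.14 ± 0.18) rose in K74R bone marrow, and Nr4a1 (-2.03 ± 0.30) and Egr2 (-2.56 ± 0.43) fell in K74R MSC; the part of handling in the results was not tested.

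Across the 16 libraries the genes fell into different patterns, described here by Pearson's r of log2 CPM, in which libraries share tissue and genotype. Sp7 and Alpl followed each other most closely (r = 0.959), then Sparc and Tnfrsf11b (0.913) and Bglap and Dmp1 (0.900), while Runx2 reached at most 0.472 with another gene of the set (Spp1) and Ibsp ran against Spp1 (-0.581). Within the 6 bone marrow libraries Alpl and Dmp1 had r = 0.877, Sp7 and Ibsp 0.858, Alpl and Bglap 0.853, and Ibsp and Sparc 0.848. Among 14717 genes with a proper name, the nearest in pattern were Cyp1b1 for Sp7 (r = 0.986), Rtn4rl1 for Alpl (0.984), Trib2 for Bglap (0.923), Isyna1 for Ibsp (0.987), Prkci for Spp1 (0.993), Fat1 for Sparc (0.990), Pfn4 for Dmp1 (0.940), Ccdc80 for Tnfrsf11b (0.987) and Chrdl1 for Tnfsf11 (0.868). For Runx2, which hardly varied, the nearest was Sspo at 0.792.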

How the data were processed

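RNA was sequenced from 16 libraries of mouse bone marrow, MSC and tumor. Per the labels' protocols, TRIzol was used for RNA and the KAPA mRNA HyperPrep kit for sequencing libraries. What the authors deposited is a matrix of unnormalized counts. The submitters' processing notes name Trimmomatic 0.38, HISAT2 2.1.0, featureCounts 1.6.0, FastQC and MultiQC, with GRCm38 as the build. Not given in the sources used here are the annotation release, whether counting used strand, and how multi-mapping reads were handled, so overlapping, antisense and near-identical genes may share reads. Column names of the WT tumors carry an R, and those of the WT MSC samples hold KCF where the K74R ones hold KLF, with no meaning given. All 55536 identifiers matched GENCODE M21.

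Each tissue was tested alone, K74R over WT, with R 4.3.3 and edgeR 4.0.16: filterByExpr by group, TMM scaling, glmQLFit and glmQLFTest, Benjamini-Hochberg adjustment over all genes and a threshold of 0.05. Tissue contrasts and differences between tissues came from a model of all 16 libraries in 6 groups. An SE is the log2 fold change divided by the square root of F. Fold changes carry a prior count of 0.125. The code was tested on simulated data. A result for 1 gene of the RANK signaling list is not reported here. Promoters are RefSeq windows on GRCm38.p6. All 10 genes were followed in every comparison and are in the counts where tested. Not every tissue contrast of each gene is written out, so one left unstated may have passed. From each other list up to 2 risen and 2 fallen genes past the threshold could be named, by smallest p between genotypes and by largest fold between tissues, and for each gene the 3 most similar in pattern. The genes, lists and tests were chosen with earlier results of these data known. Same-numbered libraries had deviations correlated at 0.124, 0.0493 and -0.00631 in bone marrow, -0.0856 in MSC and 0.00197, -0.0436 and 0.0150 in tumor. Differently numbered bone marrow libraries had -0.0927 to 0.0508. With 2 libraries a group all MSC pairs share the same size of correlation, so MSC cannot decide on pairing. The numbers were not taken to pair libraries, though these few pairs cannot exclude it. Alternatives were relative log expression factors, library size alone, no filter (a total of at least 1), DESeq2 1.42.0, voom from limma 3.58.1, a replicate block, leaving out single libraries, and all 16 libraries or only the groups compared in the model.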

Additional observations from a re-analysis of the deposited data

Results flagged for a closer look

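The effect of K74R on Spp1 differed between tissues by the test of the difference itself. It was larger in MSC than in bone marrow by 1.85 ± 0.44 on the log2 scale (adjusted p = 0.00915) and larger in MSC than in tumor by 2.80 ± 0.43 (adjusted p = 7.38e-04). The values behind these differences were 10033 and 4221 CPM in K74R MSC, against 1245 and 939.6 CPM in WT MSC, with overlapping libraries in tumor. The effect on Tnfrsf11b was lower in MSC than in tumor by a log2 difference of -2.99 ± 0.71 (adjusted p = 0.0173), where the K74R tumors held 4, 16 and 5 counts and the WT tumors 7, 2 and 2 counts. As stated above, the first Spp1 call was lost without K74R MSC library 1 (1.09). The Tnfrsf11b call was lost without K74R tumor library 2 (-2.07). Of all genes, 18.8% were called for MSC against bone marrow and 10.6% for MSC against tumor.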

How the results depend on the processing

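Of 1057 alternative values for single genes, 979 kept direction and side of the threshold, 34 newly passed, 21 no longer passed and 23 changed sign. This total pools the genotype comparisons with the tissue contrasts, and holds differences of the effect only for genes that passed as reported. It does not describe the genotype comparisons alone. Without a filter on low counts the called genes numbered 875 in bone marrow, 3063 in MSC and 810 in tumor (115, 484 and 6 as reported), and the 10 genes 3 and 6 (0 and 1 as reported). With DESeq2 they numbered 533, 1909 and 202, and of the 10 genes 2 and 5. With all 16 libraries in one model they numbered 60, 4431 and 0, and of the 10 genes 5 in MSC, where voom called 2. For differences of the effect, MSC against bone marrow had 3 of the 10 genes without the filter (1 as reported), MSC against tumor 4 (2), and tumor against bone marrow 1 (0), the last with 11 genes called by relative log expression factors, 603 without the filter and 181 with DESeq2 (7). With the 2 groups alone WT tumor against WT bone marrow called 5 of the 10 (8). The share over all genes tested is not given for these alternatives, so their counts among the 10 genes are not set against a background. The cause was not tested.

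The replicate block moved the calls to 1135 genes in MSC, 13 in tumor, 4 of the 10 genes in MSC and 1 in bone marrow (Spp1, adjusted p = 0.0405), and left Tnfrsf11b in MSC called (0.00877). The numbers are not shown to pair libraries.

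Sp7 in bone marrow turned to 0.21 with voom and 0.11 with the block, Sparc in tumor to -0.0074 with voom and -0.0061 with the block, Bglap in K74R MSC against bone marrow to 0.12 with voom, and Runx2 in K74R libraries to -0.010 for tumor against bone marrow (relative log expression factors and DESeq2) and to -0.14 for MSC against tumor (library size alone). The tumor ratio turned to -0.066 with 0.01 CPM added. None of these was called.

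With each library left out, called genes ranged from 11 to 684 in bone marrow, 0 to 581 in MSC and 0 to 124 in tumor, the 10 genes from 0 to 2 in bone marrow and 0 to 2 in MSC. A lone MSC library was assumed to vary like the other groups. Differences of the effect ranged over 1938 to 4416 genes and 0 to 2 of the 10 (MSC against bone marrow), 1110 to 3030 and 1 to 3 (MSC against tumor) and 4 to 54 genes (tumor against bone marrow). Log2 fold changes ranged from -0.43 to 0.90 for Sp7, -0.26 to 0.41 for Tnfsf11 and -0.61 to 0.21 for Ibsp in bone marrow, and -0.27 to 0.021 for Spp1, -0.22 to 0.18 for Sparc and -0.022 to 0.18 for Runx2 in tumor. In MSC against bone marrow they ranged from -0.35 to 0.41 for Bglap and -0.25 to 0.55 for Tnfsf11 in K74R, and -1.26 to 0.26 for Bglap and -0.0053 to 0.17 for Runx2 in WT, and in K74R tumor against bone marrow -0.040 to 0.16 for Runx2. The ratio difference ranged from -1.04 to 0.072 in bone marrow and -0.36 to 0.69 in tumor. Counts under about 100 per library limit Bglap, Dmp1 and Tnfsf11 in all tissues.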
